A study of Mus musculus with 8 samples.

Results

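The nuclear-encoded genes of respiratory complexes II to V were followed in ribosome footprints, the short mRNA fragments that a ribosome shields from digestion, of naive CD4+ T cells. Such cells are resting helper T cells that no antigen has activated so far. The members were the 49 of 23156 rows of the footprint table whose symbol is Sdha, Sdhb, Sdhc, Sdhd, Cyc1 or Cycs, or starts with Uqcr, with Atp5, or with Cox and a digit of 4 to 8. Grouped by symbol, they comprise 4 genes of complex II, 10 of complex III with its electron carrier cytochrome c, 18 of complex IV and 17 of complex V. The groups were Mettl3 knockout (KO) and wild-type (WT) mice of the C57BL/6 background, with 2 footprint libraries each. Mettl3 is the catalytic subunit of the methyltransferase that adds m6A, a methyl group on adenosine, to mRNA. Cells of both genotypes were treated with cycloheximide, a blocker of translation elongation, at 0.1 mg/ml for 1 min. The labels name neither the cells in which Mettl3 was deleted nor the deleted exons, the age of the mice or any pooling, and they do not say that duplicates came from separate animals. The p-values then cover only the spread between 2 libraries of a genotype, and this may be technical. The 4 input RNA libraries were not analysed here, so a footprint level combines the amount of an mRNA with its occupancy by ribosomes.

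The respiratory chain lies in the inner mitochondrial membrane. Complex II feeds electrons from succinate into ubiquinone, complex III passes them on to cytochrome c, and complex IV hands them to oxygen. Complexes III and IV pump protons as they do so, and complex V, the ATP synthase, lets the protons flow back to make ATP. Naive T cells are quiescent and cover most of their energy needs by this route, whereas activated T cells add a high rate of glycolysis. Complex II is encoded wholly in the nucleus, while complexes III, IV and V also hold subunits encoded in mitochondrial DNA, which were not analysed here.

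Levels are FPKM, the number of fragments scaled to the length of the gene model and to the reads of the library. From the size of a single read among low genes, depth was estimated at 5870000 and 2860000 reads for KO libraries 1 and 2 and at 5740000 and 3400000 reads for WT libraries 1 and 2. Mettl3 itself stood at 2.44 and 3.32 FPKM in KO, against 24.5 and 21.1 FPKM in WT (limma adjusted p = 0.00208, 0.051 without KO library 2). Of 13 T cell markers 10 were rows of the table, and all 10 reached the filter for testing, with Cd4 at 82.0 and 101 FPKM in KO, against 94.6 and 97.1 FPKM in WT. None of the 10 passed the threshold. At an unadjusted p under 0.05 in limma there were 4 of 10, against 18.4% of all tested genes. At 5 of 10 (50.0%, against 34.6% of all tested genes) both KO libraries lay below both WT libraries. The median log2 fold change of the 10 was -0.256, against -0.103 for all tested genes. The lowest were Cd3g (34.2 and 28.2 FPKM in KO, 42.2 and 66.4 FPKM in WT) and Cd3d (12.1 ± 1.57 FPKM in KO, 20.4 ± 2.49 FPKM in WT, SD, n = 2), chains of the T cell receptor complex. The summed level of 6 B cell markers was 7.84 and 19.0 FPKM in KO and 26.3 and 17.6 FPKM in WT, with Pax5 at 0 in all 4 libraries. That of 7 myeloid markers was 13.9 and 20.0 FPKM in KO and 24.0 and 17.9 FPKM in WT, and that of 2 CD8 T cell markers was 1.47 and 1.28 FPKM in KO and 1.13 and 2.41 FPKM in WT. Of 4 NK cell markers the sum was 4.55 and 4.71 FPKM in KO and 4.19 and 5.56 FPKM in WT, with Ncr1 at 0, and of 7 erythroid and platelet markers 10.8 and 45.3 FPKM in KO and 6.24 and 22.3 FPKM in WT. The part of these cell markers in the results was not tested. Of the summed FPKM, 55.7% and 49.4% in KO and 43.7% and 37.0% in WT fell on small RNA genes, which were left out of the fits.

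The question was whether footprints on the respiratory chain differ without Mettl3. Of the 49 members, 42 reached the filter of a mean of 1 FPKM over the 4 libraries, and they were fitted together with all 9271 genes that did. Of these 42, 0 were called higher and 1, Atp5d, was called lower in KO at an adjusted p under 0.05 (limma with Benjamini-Hochberg adjustment). That is 2.38% of the members, against 2.22% of all tested genes, of which 1.56% were called higher and 0.658% lower. The members' share rests on Atp5d alone, which passed the filter only through its WT libraries and was listed in KO at values far below 1 read; without it 0 of 41 members were called, with 9 at an unadjusted p under 0.05 in limma. In whole cell populations, fewer cells of a type and less RNA per cell cannot be told apart. The median log2 fold change, KO minus WT on the scale log2(FPKM + 1), was -0.01 for the members and -0.10 for all tested genes. Of the 42 members, 21 had a fold change above 0 and 21 below 0, whereas 63.4% of all tested genes were below 0. At an unadjusted p under 0.05 there were 10 of 42 members (23.8%), against 18.4% of all tested genes. The KO libraries lay below the WT libraries at 16 members (38.1%, against 34.6% of all tested genes) and above them at 8 (19.0%, against 16.3%). These shares were near those of the whole table.

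For 39 of the 42 members the 95% interval lay within a 2-fold change in either direction on the scale log2(FPKM + 1). The exceptions were Atp5d, Cox5b and Uqcr11. For a gene near 1 FPKM that scale understates a change in FPKM. Atp5s, 1 of the 39, had a log2 fold change of -0.36, and of -0.65 with a pseudocount of 0.1. Its interval therefore does not exclude a 2-fold change in FPKM itself. Uqcrq, also 1 of the 39, had an interval of 0.14 to 0.98, close to the limit. Its log2 fold change was 0.56, and 0.65 with libraries centred. The count of 39 was taken without centring only. The median absolute difference between genotype means was 0.226 on the log2 scale for members, against 0.217 for all tested genes. The median difference between libraries of 1 genotype was 0.136 in KO and 0.209 in WT for members. For all tested genes it was 0.195 in KO and 0.191 in WT. Means of 2 libraries vary less than single libraries, so these 2 kinds of difference are not alike. The summed level of all 49 members was 4757 and 4691 FPKM in KO, against 4590 and 4684 FPKM in WT. The tested members held 1.36% and 1.35% of the summed FPKM of all tested genes in KO, against 1.27% and 1.25% in WT. Complex V held the greater part of the sum, with 2886 and 2840 FPKM in KO, against 2850 and 2765 FPKM in WT.

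**Figure D1:**
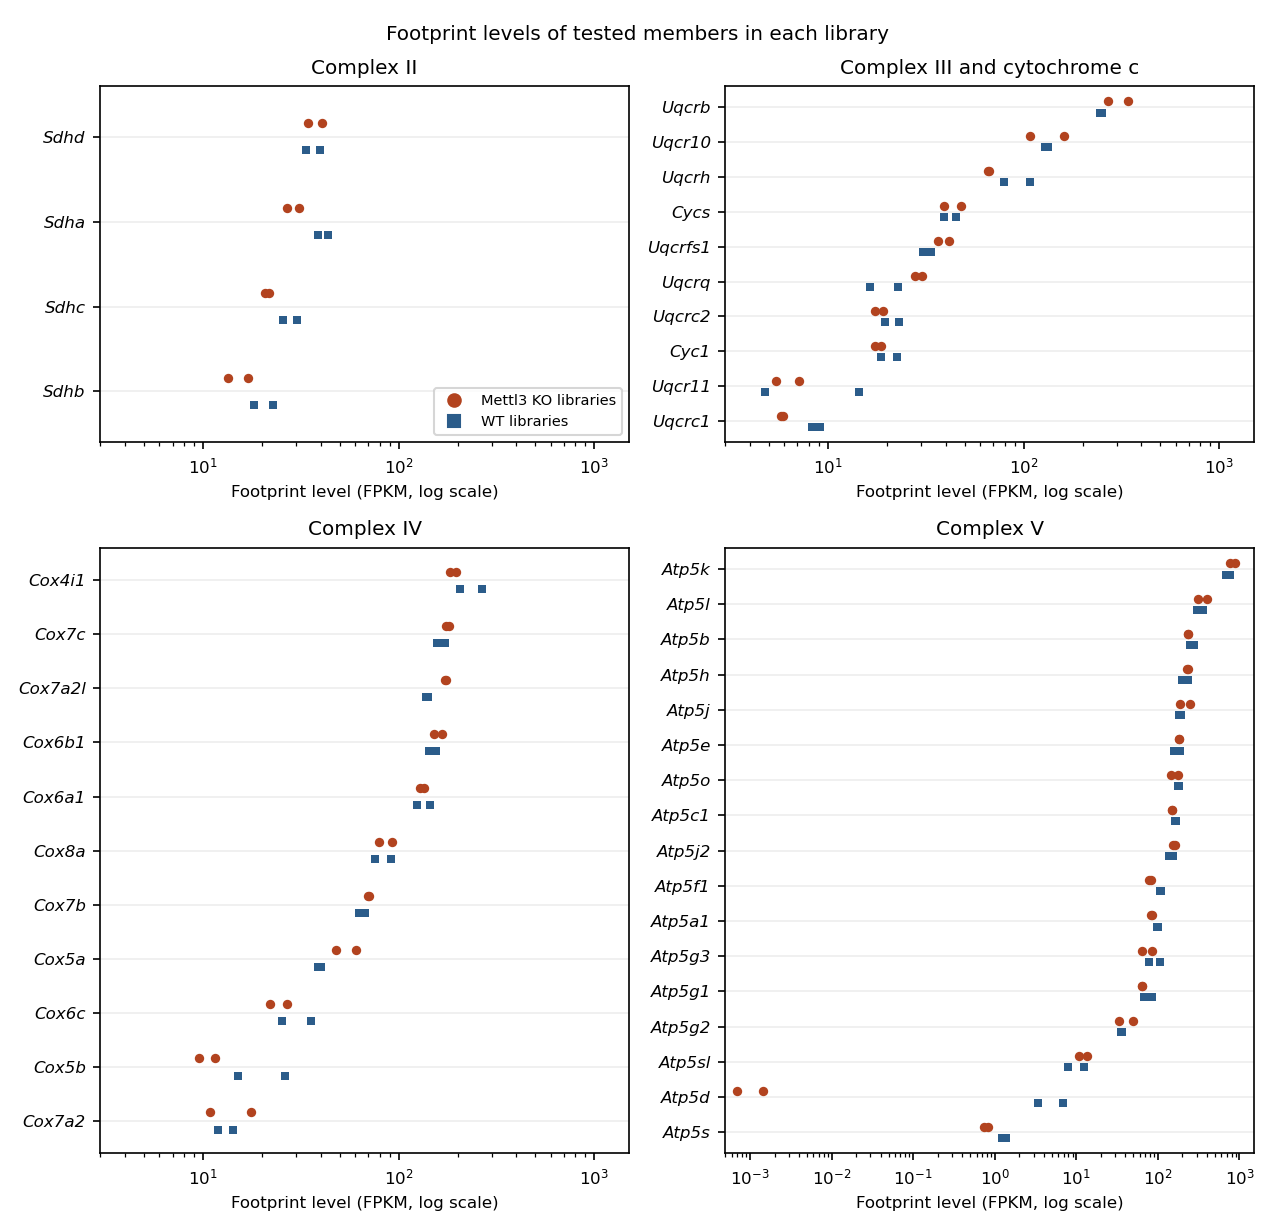
Footprint level in FPKM (log scale) of the 42 tested members, with genes sorted by mean level within each complex; circles are the 2 Mettl3 KO libraries and squares the 2 WT libraries. Most pairs of circles and squares lie close together, while Atp5d stands at 0.000696 and 0.00145 FPKM in KO and at 3.42 and 6.81 FPKM in WT.

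Complex II, succinate dehydrogenase, is also an enzyme of the tricarboxylic acid cycle. Sdha, the flavoprotein that oxidises succinate (chromosome 13, 74322254 to 74350280, GENCODE M21, GRCm38), had 26.9 and 31.1 FPKM in KO, against 38.9 and 43.7 FPKM in WT. The groups did not overlap, and the difference was -0.50 on the log2 scale (SE 0.14, limma adjusted p = 0.133). Sdhb, the iron-sulfur subunit that takes the electrons on, had 17.0 and 13.5 FPKM in KO and 22.7 and 18.3 FPKM in WT. Sdhc, a membrane anchor, had 20.8 and 21.8 FPKM in KO, against 30.1 and 25.6 FPKM in WT. In both genes each KO library lay below each WT library, as was the case at 34.6% of all tested genes. The limma adjusted p was 0.28 for Sdhb and 0.232 for Sdhc. Sdhd, the other anchor, had 40.7 and 34.6 FPKM in KO and 33.6 and 39.7 FPKM in WT, so its groups overlapped. The median log2 fold change of the 4 genes was -0.387, the lowest of the complexes, and it ranged from -0.447 to -0.256 when 1 library was left out, though 0 of 4 passed the threshold.

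Complex III has a core of catalytic subunits around which small supernumerary ones are packed. Among the catalytic subunits, Cyc1, cytochrome c1, had 17.5 and 18.6 FPKM in KO and 18.8 and 22.6 FPKM in WT. Uqcrfs1, the Rieske iron-sulfur protein, had 36.7 and 41.7 FPKM in KO, against 33.5 and 30.8 FPKM in WT. Neither passed the threshold (limma adjusted p = 0.561 and 0.328), although the KO libraries lay below WT for Cyc1 and above WT for Uqcrfs1.

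The core proteins of complex III, large subunits on the matrix side, were both at lower values in KO without passing the threshold. Uqcrc1 had 5.78 and 5.90 FPKM in KO, against 8.35 and 9.15 FPKM in WT. Its fold change, -0.51 on the log2 scale (SE 0.16), was the lowest of complex III (limma adjusted p = 0.161). Uqcrc2 had 19.2 and 17.4 FPKM in KO, against 19.6 and 23.0 FPKM in WT.

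The small subunits of complex III had fold changes on both sides of 0, and none passed the threshold. Uqcrq, a small subunit named for ubiquinone binding, had 30.4 and 27.9 FPKM in KO, against 16.5 and 22.9 FPKM in WT. That was the highest fold change of all members, 0.56 on the log2 scale (SE 0.18, limma adjusted p = 0.168). Uqcrb, the most abundant member of complex III, had 270.0 and 341 FPKM in KO, against 245 and 250.1 FPKM in WT. Uqcrh, the hinge protein between cytochrome c1 and cytochrome c, lay on the other side, with 66.9 and 65.5 FPKM in KO, against 79.3 and 108 FPKM in WT (-0.47, limma adjusted p = 0.187). Both genotypes overlapped at Uqcr10 (160.1 and 107 FPKM in KO, 128 and 133 FPKM in WT). The WT libraries of Uqcr11 were apart by more than the genotypes, at 4.77 and 14.5 FPKM, against 7.16 and 5.42 FPKM in KO. Its interval, -1.36 to 0.60, was the widest of the complex. Cycs, cytochrome c, which also triggers the apoptosome once it leaves the mitochondrion, had 39.4 and 47.9 FPKM in KO, against 39.1 and 45.2 FPKM in WT.

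**Figure D2:**
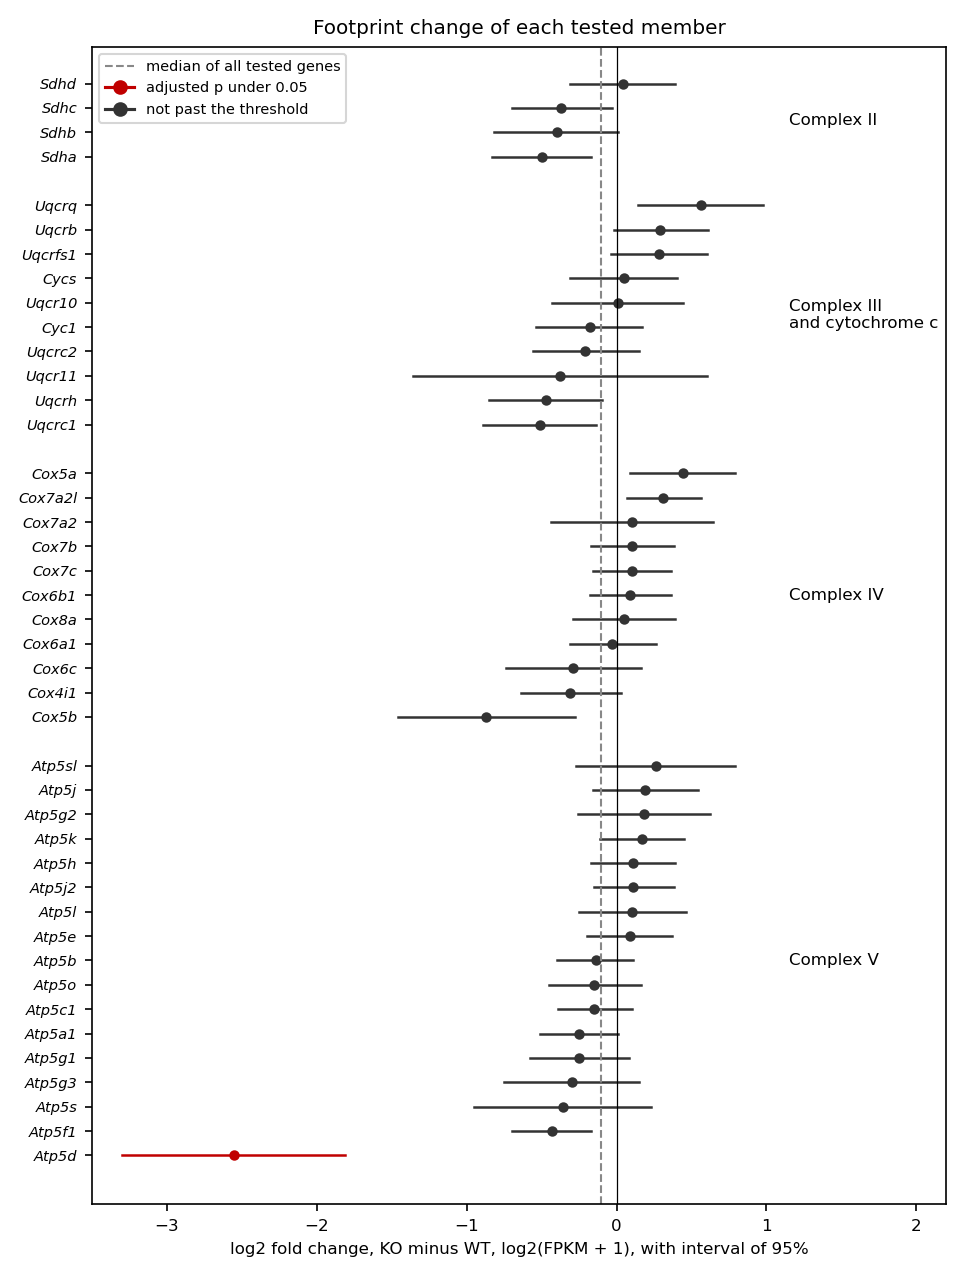
Log2 fold change of each tested member (KO minus WT, log2(FPKM + 1) scale; points) with its 95% interval (bars), by complex; the dashed line is the median of all tested genes, -0.10. Atp5d is the only member past the threshold, at -2.55, and the others range from -0.87 for Cox5b to 0.56 for Uqcrq.

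Complex IV, cytochrome c oxidase, has a catalytic core made in the mitochondrion, and the nuclear genes add subunits that stabilise and regulate it. Several of these exist as isoforms for different tissues. The following isoforms, known from heart and skeletal muscle or from testis, were at 0 in all 4 libraries: Cox6b2, Cox7a1, Cox7b2, Cox8b and Cox8c. The lung and hypoxia isoform Cox4i2 had 0.0264 and 0.604 FPKM in KO and 0 in both WT libraries. The muscle isoform Cox6a2 was at 0 in KO and had 0 and 1.14 FPKM in WT, which amounts to an estimated 2.64 reads. These 7 genes did not reach the filter.

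Their widely expressed partners were well detected. Cox4i1 had 197 and 182 FPKM in KO, against 207 and 265 FPKM in WT, and was the most abundant member of complex IV. Cox6a1 had 129 and 135 FPKM in KO and 125 and 145 FPKM in WT. Cox6b1, on the side of the complex that meets cytochrome c, had 167 and 152 FPKM in KO and 144 and 156 FPKM in WT. Cox7c, at 180 and 174 FPKM in KO and 172 and 157 FPKM in WT, Cox7b (70.7 and 69.5 FPKM in KO, 67.7 and 62.7 FPKM in WT) and Cox8a (92.9 and 79.5 FPKM in KO, 75.3 and 91.1 FPKM in WT) showed small differences too. None of these 6 passed the threshold, and their log2 fold changes lay between -0.31 (Cox4i1) and 0.10 (Cox7b, Cox7c).

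Cox5a and Cox5b, small subunits on the matrix side, had the highest and the lowest fold change of complex IV. Cox5a (chromosome 9, 57521274 to 57532426) had 47.6 and 60.9 FPKM in KO, against 40.0 and 38.8 FPKM in WT, a difference of 0.44 on the log2 scale (SE 0.15, limma adjusted p = 0.19). Cox5b, the zinc-binding subunit (chromosome 1, 36691449 to 36693681), had 11.6 and 9.51 FPKM in KO, against 15.2 and 26.3 FPKM in WT. Its difference, -0.87 on the log2 scale (SE 0.25, limma adjusted p = 0.138), was the lowest among members other than Atp5d. Without WT library 2 it was -0.49, so that library carried much of its size. The exons of Cox5a share 269 bases with a gene on the opposite strand, and 76.7% of the 28-base windows of the Cox5b coding sequence also occur in the transcript Gm11273.

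Cox7a2l, which joins complexes III and IV into supercomplexes and of which C57BL/6 mice carry a short form, had 172 and 175 FPKM in KO, against 138 and 140.5 FPKM in WT. Its libraries lay close together within a genotype, and its fold change was 0.31 on the log2 scale (interval 0.07 to 0.56, limma adjusted p = 0.184). Its relative Cox7a2, a subunit of the complex itself, had 17.7 and 10.9 FPKM in KO and 11.9 and 14.2 FPKM in WT. Cox6c had 26.8 and 22.1 FPKM in KO, against 25.4 and 35.5 FPKM in WT, with overlapping groups.

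Complex V consists of a catalytic head, a central stalk that turns inside it, a ring of c subunits in the membrane, and a peripheral stalk that holds the head still. In the head, Atp5b, the catalytic beta subunit, had 237 and 234 FPKM in KO, against 274 and 247 FPKM in WT. Atp5a1, the alpha subunit, had 83.9 and 81.9 FPKM in KO, against 99.6 and 97.5 FPKM in WT. The gamma subunit Atp5c1 of the central stalk had 149 and 149 FPKM in KO, against 164 and 166 FPKM in WT. In all 3 the KO libraries lay below the WT libraries, as was the case at 34.6% of all tested genes. Their log2 fold changes were -0.14, -0.25 and -0.15 (limma adjusted p = 0.535, 0.292 and 0.507). The epsilon subunit Atp5e, also of the central stalk, had 184 and 181 FPKM in KO and 186 and 158 FPKM in WT.

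Atp5d, the delta subunit of the central stalk (chromosome 10, 80138632 to 80145818), was the 1 member past the threshold. It was listed at 0.000696 and 0.00145 FPKM in KO, against 3.42 and 6.81 FPKM in WT (log2 fold change -2.55, SE 0.32, limma adjusted p = 0.0137). In the KO libraries 1 read of this gene is worth an estimated 0.121 and 0.248 FPKM, so both values are far below 1 read. They amount to an estimated 0.00576 and 0.00584 reads in KO, whereas the WT values amount to 27.7 and 32.7 reads. Such a value is less than a single whole read would give. The gene passed the filter only through WT, so it had to differ, and the size of its fold change is set by the pseudocount, being -5.61 with 0.1 and -1.0 with 5, and it was -2.31 when values below 1 read were raised to 1 read. The call ended without KO library 1 (0.0962), KO library 2 (0.168) or WT library 2 (0.0603), and with no filter on low genes (0.211). No window of its coding sequence occurs in another annotated transcript, and 68 exon bases are shared with Cbarp on the opposite strand. What set these KO values was not tested.

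The c subunits of the membrane ring come from a small family, Atp5g1, Atp5g2 and Atp5g3, whose proteins differ in the import signal that is cut off. The last 78 codons before the stop encode the same residues in all of them. The stretches below open that shared part, in 120 bases of coding sequence each, and are shown because within it footprints of the family can be told apart only by bases that differ among the genes, which are in capitals. They are taken from the GENCODE M21 transcripts (GRCm38), and the genes lie on the minus strand of chromosome 11 (96068852 to 96075670), chromosome 15 (102662864 to 102672352) and chromosome 2 (73908447 to 73911326).
Atp5g1: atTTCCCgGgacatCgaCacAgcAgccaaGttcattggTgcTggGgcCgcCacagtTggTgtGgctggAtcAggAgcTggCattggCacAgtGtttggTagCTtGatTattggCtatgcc
Atp5g2: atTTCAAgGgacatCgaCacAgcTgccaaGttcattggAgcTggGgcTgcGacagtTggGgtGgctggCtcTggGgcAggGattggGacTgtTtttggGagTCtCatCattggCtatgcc
Atp5g3: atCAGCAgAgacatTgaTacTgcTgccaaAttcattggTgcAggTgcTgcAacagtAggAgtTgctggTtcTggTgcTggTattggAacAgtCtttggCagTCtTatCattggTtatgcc
Of these 120 bases 33 differ among the genes. Over the whole shared part of 234 bases, Atp5g1 and Atp5g2 were 84.6% identical, with a longest identical run of 20 bases, shorter than a footprint of about 28 bases. Atp5g3 was 78.6% identical to Atp5g1 and 77.4% to Atp5g2. However, every 28-base window of Atp5g1 and of Atp5g2 also occurs in another annotated transcript, most often of a processed pseudogene, whereas 0 of 396 windows of Atp5g3 do.

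None of the c subunit genes passed the threshold. Atp5g1 had 63.3 and 64.4 FPKM in KO, against 68.0 and 84.9 FPKM in WT. Atp5g2 had 49.0 and 33.5 FPKM in KO and 36.2 and 35.1 FPKM in WT. Atp5g3, the gene whose reads are least ambiguous, had 84.0 and 64.3 FPKM in KO, against 77.2 and 106 FPKM in WT. The groups overlapped at Atp5g2 and Atp5g3. Summed over the family, the level was 196 and 162 FPKM in KO, against 181 and 226 FPKM in WT, so the groups overlapped there too.

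In the peripheral stalk, Atp5f1, the b subunit that spans its length, had 82.1 and 77.3 FPKM in KO, against 107 and 109 FPKM in WT. The libraries of each genotype lay close together, and the difference was -0.43 on the log2 scale (SE 0.11, limma adjusted p = 0.109), the smallest adjusted p among members after Atp5d. Its exons share 337 bases with Wdr77 on the opposite strand, and 63.8% of its coding windows occur in other transcripts. At the other stalk subunits the groups overlapped. Atp5o, which ties the stalk to the head, had 177 and 145 FPKM in KO and 175 and 180 FPKM in WT. Atp5h, the d subunit, had 237 and 227 FPKM in KO and 232 and 199 FPKM in WT. Atp5j, coupling factor 6, had 186 and 246 FPKM in KO and 191 and 183 FPKM in WT.

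The small membrane subunits that hold synthase dimers together were among the most abundant members. Atp5k, the e subunit, had 879 and 760.2 FPKM in KO, against 771 and 685 FPKM in WT, and ranked 51 and 55 among all tested genes in KO and 60 and 65 in WT. Atp5l, the g subunit, had 310.4 and 402 FPKM in KO and 304 and 356 FPKM in WT. Atp5j2, the f subunit, had 154 and 160.0 FPKM in KO, against 153 and 138 FPKM in WT. Their log2 fold changes were 0.17, 0.10 and 0.11. FPKM counts the untranslated parts of a gene model in its length, so this order of levels is not an order of protein synthesis. Of the remaining rows that share the Atp5 prefix, Atp5s, coupling factor B, was low. It had 0.833 and 0.742 FPKM in KO, against 1.37 and 1.22 FPKM in WT. Atp5sl had 10.8 and 13.6 FPKM in KO and 7.98 and 12.4 FPKM in WT. The product of Atp5sl acts in assembly of complex I, and the gene was counted with complex V by its symbol only.

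By mean level within complex V, both genotypes had Atp5k first, Atp5l next and then Atp5b and Atp5h. Atp5b and Atp5h did not differ beyond the spread of their libraries in KO (235 ± 1.60 FPKM and 232 ± 7.22 FPKM, SD, n = 2). In complex IV, Cox4i1, Cox7c and Cox7a2l formed the top in KO, in this order (189 ± 10.6, 177 ± 4.10 and 174 ± 2.39 FPKM, SD, n = 2). In WT, Cox4i1 likewise stood above Cox7c (236 ± 41.3 and 165 ± 10.5 FPKM, SD, n = 2). In complex III, Uqcrb was above Uqcr10, and Uqcr10 above Uqcrh, in each library.

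A feature that the choice of members did not use is coding length, which ranges from 156 bases for Atp5e to 1992 bases for Sdha. Of the 12 tested members with at least 600 coding bases, 11 had a log2 fold change below 0, with a median of -0.226. The exception was Uqcrfs1. Of the 29 shorter members 10 were below 0, with a median of 0.086. Without Atp5d it was 9 of 28, with a median of 0.088. Over the 40 tested members with an annotated length other than Atp5d, the correlation of fold change with length was -0.387 by Spearman's rho and -0.399 by Pearson's r with log10 length. The limit of 600 bases was chosen after the values were seen, and members share the same 4 libraries, so this is a description. Among all 8825 tested coding genes, 4835 of 7534 long and 775 of 1291 short genes were below 0, so most genes of either class were. The medians of all coding genes were -0.104 for long and -0.094 for short ones, and rho was -0.018. Without WT library 1 the median of the short members was -0.019, with 16 of 29 below 0, while 11 of 12 long members were below 0 whichever library was left out.

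**Figure D3:**
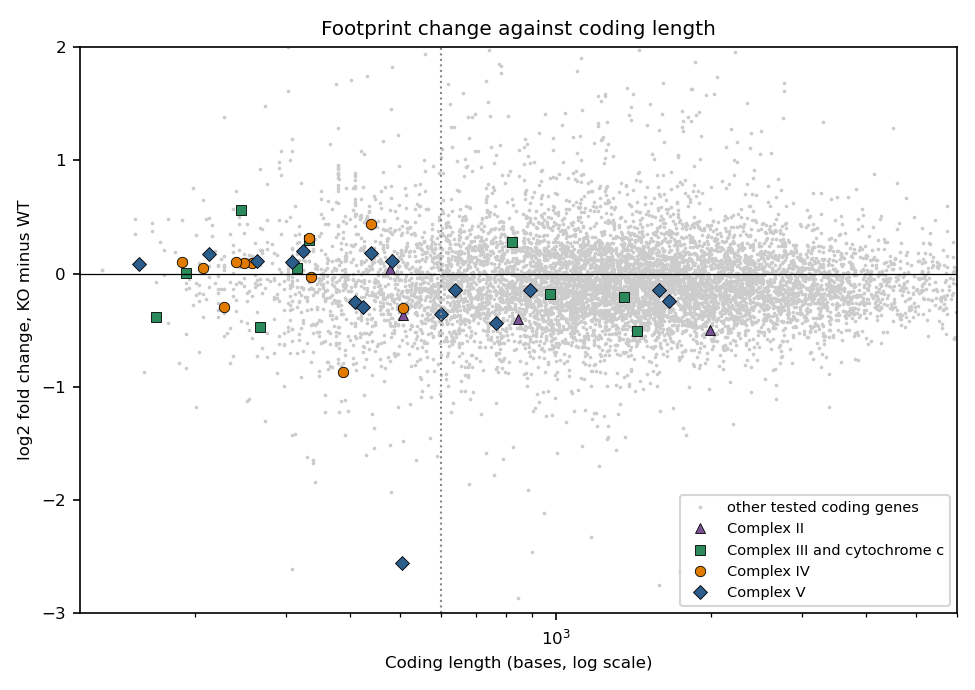
Log2 fold change (KO minus WT) against coding length in bases (log scale) for tested members by complex and for other tested coding genes (grey); the dotted line marks 600 bases, and genes beyond the axis limits are not drawn. Of 12 members at or right of the line 11 lie below 0, while 10 of 29 shorter members do. Of all tested coding genes, 4835 of 7534 long and 775 of 1291 short ones are below 0.

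Many short members have processed pseudogene copies, and 28 of 41 tested members shared at least 1 window of 28 coding bases with an annotated transcript of another place in the genome, 25 of them most with a pseudogene. None of these closest copies is a row of the footprint table. Genes whose exons overlap a member were not counted as copies; one of them, Pdzd9, shares 504 exon bases with Uqcrc2 on the opposite strand. In 12 members more than 50.0% of windows were shared, among them Uqcrb (91.8%) and Atp5l, Cox7c and Cycs (100% each). The median log2 fold change of these 12 was 0.074. In the 13 members with no shared window, among them Sdha, Sdhb, Sdhc, Sdhd, Cyc1 and Uqcrfs1, it was -0.246. In the 16 members between them it was 0.03. The sources used here do not say how reads that match several places were treated, and the part of such reads in the values was not tested.

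Other mitochondrial genes were set beside the members. Of 37 assembly factors of complexes II to V, 34 were tested, and 1 rose and 0 fell, against 1.56% and 0.658% of all tested genes (median log2 fold change 0.017). The 1 was Pet100, which helps to assemble complex IV, at 6.78 and 10.9 FPKM in KO, against 3.06 and 2.37 FPKM in WT (1.38, SE 0.24, limma adjusted p = 0.0401). Its call ended whichever library was left out, with an adjusted p of 0.0768 without KO library 1, 0.246 without KO library 2, 0.105 without WT library 1 and 0.235 without WT library 2. The most abundant assembly factors were Cox14 (93.7 and 95.0 FPKM in KO, 84.2 and 71.5 FPKM in WT), Fmc1 (65.7 and 49.1 FPKM in KO, 66.7 and 63.2 FPKM in WT) and Uqcc2 (46.1 and 50.3 FPKM in KO, 62.9 and 71.1 FPKM in WT). Of 22 carriers, pores and import factors of the mitochondrial membranes, 0 passed the threshold (median -0.036). Slc25a5, the ADP/ATP carrier of most tissues, had 216 and 209 FPKM in KO and 213 and 238 FPKM in WT.

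Of 16 genes of the tricarboxylic acid cycle and the pyruvate dehydrogenase complex that feeds it, 0 passed the threshold. At an unadjusted p under 0.05 in limma there were 5 of 16, against 18.4% of all tested genes. All 16 had a log2 fold change below 0, against 63.4% of all tested genes, with a median of -0.214. At 12 (75.0%, against 34.6% of all tested genes) both KO libraries lay below both WT libraries. Without WT library 1, 15 of 16 were below 0, and 14 of 16 without any other library. With each library centred on its median, 12 of 16 were below 0 and the median was -0.12, against -0.008 for all genes. Pdha1, the alpha subunit of pyruvate dehydrogenase, had 36.1 and 40.0 FPKM in KO, against 47.1 and 49.9 FPKM in WT. Idh3b, of isocitrate dehydrogenase, had 35.5 and 32.3 FPKM in KO, against 36.7 and 42.7 FPKM in WT, and Cs, citrate synthase, had 26.6 and 28.8 FPKM in KO, against 36.1 and 35.0 FPKM in WT. Of 12 tested regulators of mitochondrial gene expression 0 passed the threshold (median -0.122, 0 at an unadjusted p under 0.05). Nrf1, a transcription factor of many respiratory genes, had 17.5 and 15.5 FPKM in KO, against 17.6 and 18.5 FPKM in WT, Yy1 had 16.8 and 17.8 FPKM in KO and 18.7 and 14.3 FPKM in WT, and Gabpa, whose exons share 397 bases with those of Atp5j on the opposite strand, had 12.2 and 14.5 FPKM in KO, against 16.7 and 14.5 FPKM in WT.

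**Figure D4:**
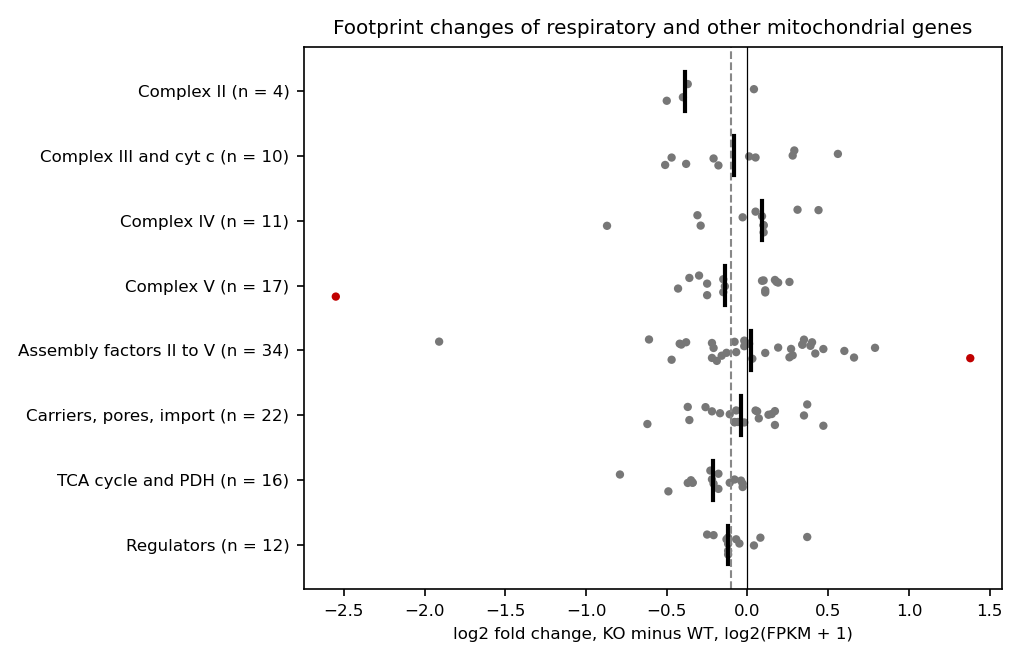
Log2 fold change (KO minus WT) of each tested gene of complexes II to V and of other mitochondrial gene lists; black bars are medians, red points passed the threshold, and the dashed line is the median of all tested genes. Medians run from -0.387 for complex II to 0.09 for complex IV, and Atp5d and Pet100 are the red points.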

How the data were processed

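The authors deposited FPKM per gene, and the 4 footprint libraries have a column each, unpooled, per the file headers. Per the submitters' processing notes, the authors used TopHat and Cuffdiff with the genome build mm10 (GRCm38). Per the labels' protocols, libraries were amplified for 9 PCR cycles. The sources used here give no gene annotation, use of strand, treatment of reads that match several places or scaling of libraries to each other. Without strand, reads of overlapping genes cannot be told apart.

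Titles gave each sample's genotype and whether it was footprint or input. From the FPKM, 1215 small RNA genes were left out, and those averaging 1 FPKM or more were kept. Genotypes were compared on log2(FPKM + 1) with limma 3.58.1 run in R 4.3.3 (moderated variances that follow the mean level, two-sided tests, 2 residual and 5.20 prior degrees of freedom, Benjamini-Hochberg adjustment over all tested genes, threshold 0.05). The fit was tested on simulated data with changes placed only in genes of at least 5 FPKM. The simulated SDs were shuffled among genes without regard to level, so this test does not cover low genes such as Atp5d. Depth and the value of 1 read were estimated from the most frequent FPKM times transcript length of 3389 coding genes with a single transcript; the lengths the authors used are unknown, so counts were not rebuilt and counting error is unknown beyond these estimates. Lengths, positions, exon overlaps and 28-base windows came from GENCODE M21, where 48 of 49 members matched by symbol. Tables were made with Python 3.11.15 and plots with matplotlib 3.10.9.

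The members and gene lists were chosen with earlier results of these data known. The naming rule took called members, in each complex the 4 most abundant and those with the highest and lowest fold change, members far below 1 read and paralogs, and for other lists the called genes and up to 3 of highest mean; the other members were added to account for all. Alternatives changed the pseudocount, the filter and the scaling, kept the small RNA genes, dropped the variance trend, added a replicate block, or left out 1 library at a time. Protein-coding genes alone and values raised to 1 read were added after the data were seen.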

Additional observations from a re-analysis of the deposited data

How the results depend on the processing

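The number of members called was 0 with no filter on low genes (9 of 44 at an unadjusted p under 0.05 in limma) and 0 among genes of at least 5 FPKM, where Atp5d is not tested (10 of 40), and it ran from 0 to 1 without 1 library; in the other settings it was 1, Atp5d. The number of genes called in the whole table, 206, was 0 with no filter (2061 of 15456 at an unadjusted p under 0.05), 83 with small RNA genes kept and 68 without the variance trend, and it ran from 1 to 57 without 1 library. Such fits assume that the lone library varies like the other genotype and have fewer residual degrees of freedom. The median of the members ran from -0.145 to 0.018 without 1 library and was 0.084 with libraries centred. Replicate numbers share only a number: the correlation of same-numbered deviations was -0.0927, and the replicate block gave 170 calls, 1 of them a member, with an adjusted p of 0.0548 for Pet100. Of the members, 12 changed sign in some setting. Cox6a1 was 0.066 with centring and 0.051 with a common sum. Without 1 library the log2 fold change ran from -0.14 to 0.078 for Cox6a1, -0.088 to 0.45 for Atp5g2, -0.23 to 0.42 for Cox7a2, -0.083 to 0.19 for Cox8a, -0.08 to 0.16 for Sdhd, -0.28 to 0.29 for Uqcr10, -0.0075 to 0.4 for Atp5j, -0.084 to 0.29 for Atp5l, -0.093 to 0.18 for Cycs, -0.031 to 0.54 for Atp5sl, -0.031 to 0.2 for Atp5e and -1.1 to 0.33 for Uqcr11. The cause was not tested. Depth limits the low members: besides Atp5d, 11 of 40 members had under 100 estimated reads in some library, the lowest being Atp5s at 3.39.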

Other observations

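Values far below 1 read were not particular to Atp5d. Of 9064 tested genes with a transcript length, 74 had a library above 0 but under 0.1 of the value of 1 read while another stood at 1 FPKM or more, and Atp5d was the 1 member among them. In 3 genes both KO libraries were that low and both WT libraries at 1 FPKM or more, of which 2 were called. In 3 genes it was the other way round, of which 3 were called, against 2.22% of all tested genes. These genes were picked because their groups lie apart, so the calls were largely set in advance. Among the assembly factors, Uqcc1, chosen after its values were seen, showed a like value in 1 library, with 0.0146 and 5.40 FPKM in KO, against 7.57 and 9.70 FPKM in WT.

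Subunits of complexes IV and V whose symbols lie outside the naming scheme were at levels like those of the members. Ndufa4, now counted with complex IV, had 103 and 109 FPKM in KO, against 119 and 106 FPKM in WT. Usmg5, a small subunit of the synthase, had 168 and 196 FPKM in KO, against 148 and 167 FPKM in WT. Atpif1, the inhibitor that stops the synthase from running in reverse, was low, at 0.592 and 1.23 FPKM in KO and 0.908 and 1.62 FPKM in WT. 2010107E04Rik, the other subunit set beside the members, had 30.7 and 48.4 FPKM in KO and 42.9 and 65.2 FPKM in WT, with overlapping groups. Its log2 fold change was -0.44. None of these 4 passed the threshold, and Atpif1 was named beyond the 3 of highest mean.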
